A study of Mus musculus with 6 samples.

Results

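Glycolysis splits glucose into pyruvate in the cytosol, the pyruvate dehydrogenase complex carries pyruvate into the mitochondrial tricarboxylic acid (TCA) cycle as acetyl-CoA, and the cycle feeds the respiratory chain. Mouse oocytes are known for a low capacity to use glucose and for relying on pyruvate, which the surrounding cumulus cells supply. The enzymes described here are 43 genes of these 3 blocks, chosen as a list by name and matched to array probes that carry a single gene symbol. Of the 43, 34 had such a probe, 1 probe each, among 13840 symbols and 33012 probes on the array. Those without one were Gpi1, Pfkl, Eno1 and Pkm of glycolysis, Dlat and Pdp1 of pyruvate entry, and Aco1, Idh3b and Suclg2 of the TCA cycle, and they were not analysed here.

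Each array held the RNA of 1 mouse oocyte. On 3 arrays it was a mature oocyte that lacked Ago2, the endonuclease of RNA interference (called Ago2-deficient here), and on the other 3 a wild-type oocyte at the germinal vesicle (GV) stage. The mutant females were [Ago2 F/F, Zp3-Cre], with a floxed Ago2 allele and a transgene that expresses the recombinase in growing oocytes. Other ovarian cells thus kept the gene. For the controls the labels give the wild-type genotype and name no transgene. By their labels the GV oocytes came from oviducts of adult females, with the cumulus cells taken off by hyaluronidase, as the paper describes for ovulated oocytes, and the stage is given here as labelled. Strain, exact age and the number of animals are not given in the sources used here. Since separate animals are not stated, each p-value reflects oocyte-to-oocyte spread alone. Genotype and stage differ together, so that the part of each cannot be told apart. Wild-type mature oocytes were not analysed here.

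Signals are given as log2 values that the authors had quantile normalized over the 6 arrays, and a probe was called detected at a signal-to-noise ratio (S/N) of at least 3. These values are relative within an array and do not measure the total mRNA of an oocyte. The Ago2 probe was undetected in every Ago2-deficient oocyte (S/N -0.48, 1.20 and -0.96) and was detected in 1 of 3 GV oocytes (5.24, 0.81 and 2.56), so it does not check the genotype. Across all probes, 4620 to 6798 were detected on the Ago2-deficient arrays and 10650 to 11334 on the GV arrays. All 16 oocyte markers on the array were detected in every GV oocyte and 12 of them in every Ago2-deficient oocyte, where Zp2, Kit and Figla were detected on no array. Of 17 cumulus and granulosa cell markers, 0 to 3 were detected per Ago2-deficient array and 3 to 5 per GV array, with the summed signal of their 18 probes at 3909 to 5476 and 4933 to 11213. Only Nr5a2 and Inha were tested, both through their detection in every GV oocyte, which favours lower values in the other group. Nr5a2 was lower in the Ago2-deficient oocytes (log2 difference -3.54, or -2.74 without Ago2-deficient replicate 3 and at least 14.3-fold without replicate 2, the mutant oocyte in which it was detected), as was Inha (at least 6.41-fold), whose call was lost under 6 of 16 alternative settings, cyclic loess and centring among them, and without Ago2-deficient replicate 2, GV replicate 1 or GV replicate 2 (at least 4.63-fold, 7.25-fold and 3.86-fold). Of the 18 probes 9 were detected on no array, those of Fshr, Amh, Has2, Tnfaip6 and Pgr among them, and others were detected on some arrays. Inhba was detected in 2 GV oocytes (S/N 36.7 and 18.1) and 1 Ago2-deficient oocyte (3.47), and Amhr2 likewise (8.39 and 21.1, and 8.30). The part of such cells in the results was not tested.

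Fewer of these enzymes were detected in the Ago2-deficient oocytes than in the GV oocytes, mostly in the mitochondrial blocks. Of the 34 genes, 10 were detected on each Ago2-deficient array and 18, 17 and 17 on the GV arrays, which is 29.4% against 50% to 52.9%. Among all probes with a single symbol, 16.4% to 24.4% were detected on the Ago2-deficient arrays and 40.7% to 43.0% on the GV arrays, so the drop was not particular to these enzymes. Of the 12 TCA cycle genes, 10, 7 and 7 were detected in the GV oocytes but 4, 3 and 3 in the mutant oocytes. Of the 13 glycolysis genes, 4, 5 and 5 were detected in the GV oocytes and 3, 4 and 4 in the mutant oocytes. Of the 9 pyruvate entry genes, 4, 5 and 5 were detected in the GV oocytes and 3, 3 and 3 in the mutant oocytes. No test of the difference between blocks was made. The median signal of undetected probes was 145 to 231 on the Ago2-deficient arrays and 70.8 to 83.3 on the GV arrays, and the part of this background in the loss of detection was not tested.

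**Figure D1:**
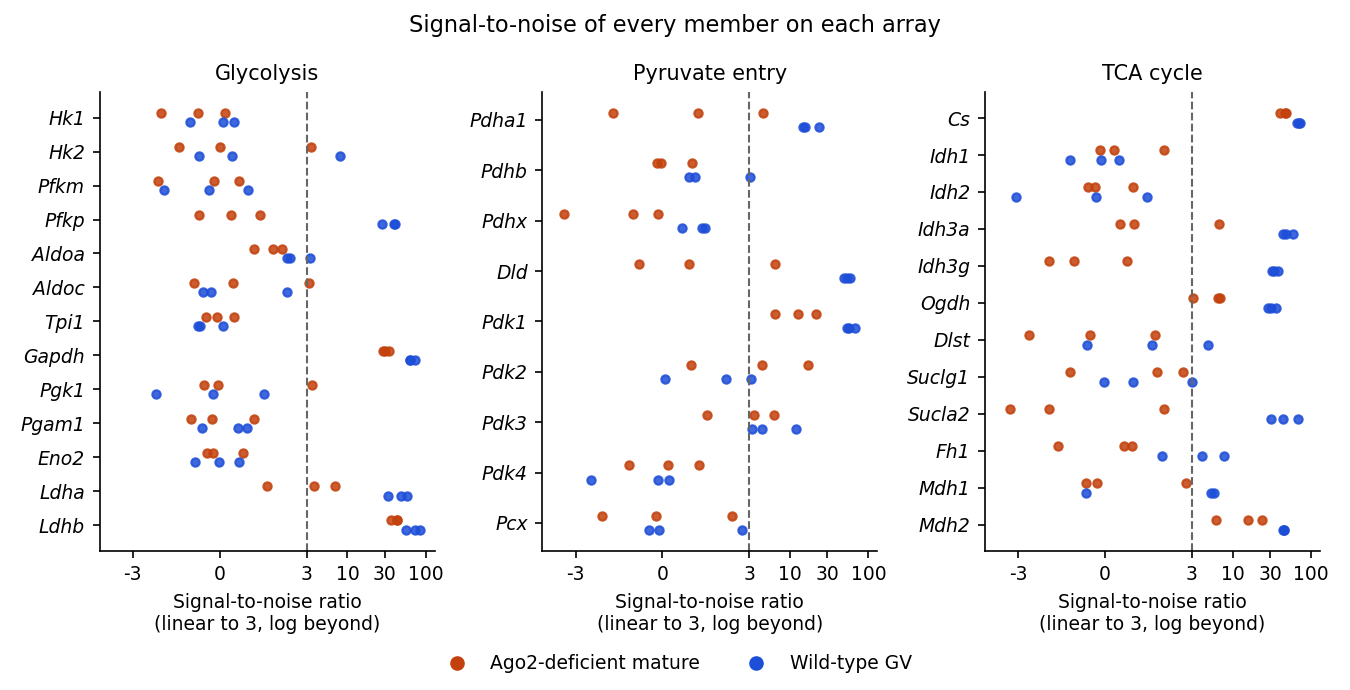
Signal-to-noise ratio (horizontal axis, linear to 3 and logarithmic beyond) of the 34 enzyme genes on each array, in 3 blocks; each point is 1 oocyte and the dashed line is the detection limit of 3. Cs, Gapdh and Ldhb lie above 28 on all 6 arrays, 10 genes stay left of the line on all 6, and Pfkp, Idh3g and Sucla2 lie right of it in every GV oocyte and left of it in every Ago2-deficient oocyte.

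Testing required detection on every array of 1 group or the other, which held for 14 of the 34 enzymes and for 7915 genes in all. A call needed more than a 2-fold difference and an adjusted p below 0.05 in limma with Benjamini-Hochberg adjustment. Of the 14, 7 were lower in the Ago2-deficient oocytes, 1 was higher and 6 were not called, beside 44.8% lower and 17.4% higher of all tested genes. The 8 calls are 57.1% of the members tested, close to the 62.2% called of all genes, and the groups did not overlap in 10 of the 14, or 71.4%, beside 70.4%. As a share, then, the enzymes moved as the background did. The median log2 difference of the 14 was -2.14, and that of all tested genes was -1.39. The oocyte markers moved too, with 12 of 16 lower, none higher and a median of -2.57. Of the 14, 8 were tested only because they were detected in every GV oocyte, a selection that favours lower values in the other group.

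Of 4 tested glycolysis genes 1 was higher and 2 were lower, beside 17.4% higher and 44.8% lower of all tested genes. Of the 4, 2 were tested only through the GV oocytes. Pfkp, the platelet isoform of phosphofructokinase, which commits sugar to glycolysis, had values of 6.75, 7.39 and 6.79 in the Ago2-deficient oocytes, against 10.65, 11.14 and 10.48 at the GV stage. Its S/N was 27.9 to 40.8 in the GV oocytes and -0.70 to 1.38 in the others, which leaves it undetected there. The groups did not overlap, and on the quantile values Pfkp was at least 13.7-fold lower (adjusted p = 0.000303 from limma). Its log2 difference was smaller but still called under cyclic loess (-1.74) and with arrays centred on the always-detected probes (-2.94). Where a whole group was undetected, as here, the fold is given as a bound on the quantile values. It was taken against whichever was higher on each array, the lowest detected signal or the probe's own. For Pfkp, Idh3g and Sucla2 this was the probe's own signal, so the bound equals the fitted difference. It is not a strict limit, since other scalings gave smaller or larger differences. The lowest detected signals of the Ago2-deficient arrays (6.02 to 6.31) also lay under the median of their undetected probes (6.99 to 7.07).

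Gapdh, which oxidizes glyceraldehyde 3-phosphate in the middle of the pathway, had values of 16.83, 16.16 and 16.66 in the Ago2-deficient oocytes, against 13.93, 14.69 and 14.34 at the GV stage. All 3 mutant oocytes lay above all 3 GV oocytes, at means of 16.55 ± 0.35 and 14.32 ± 0.39 (SD, n = 3). The log2 difference was 2.23 (standard error 0.37, adjusted p = 0.00221 from limma), but it was 0.47 and not called with no scaling and -0.63 and not called with arrays scaled to a common median. The unscaled signals overlapped, at 40931 to 74703 against 36237 to 53227, and the S/N of Gapdh was lower in the mutant oocytes, at 28.8 to 33.7 against 63.4 to 72.55. Whether Gapdh was called higher therefore depended on the scaling between arrays. The common median was taken over all probes, most of them undetected, and all tested genes then had a median difference of -3.08. Relative to the citrate synthase gene Cs on the same array, on unscaled signal, Gapdh was higher by 1.51, as described below. The S/N of Cs was also lower in the mutant oocytes, at 39.8 to 48.4 against 65.7 to 73.1.

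Lactate dehydrogenase, which interconverts pyruvate and lactate, has an Ldha and an Ldhb subunit. Ldhb, the form that dominates in mouse oocytes, read 16.12, 16.09 and 16.31 against 18.93, 18.53 and 18.68. The groups were tight and well apart, and the log2 difference of Ldhb was -2.54 (adjusted p = 0.000645 from limma, standard error 0.31). It was lower under every scaling tried. Ldha read 7.67, 10.26 and 10.05 against 10.95, 11.67 and 10.56, with the lowest oocyte undetected. Its groups did not overlap either, but with a difference of -1.73 (standard error 0.75) it was not called (adjusted p = 0.0834 from limma). The difference of Ldha was -0.90 without Ago2-deficient replicate 1 and -0.041 under cyclic loess.

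The other 9 glycolysis genes were not tested. Hk1, the constitutive hexokinase, the muscle phosphofructokinase Pfkm, the isomerase Tpi1, the mutase Pgam1 and the neuronal enolase Eno2 were detected on no array. Hk2, the inducible hexokinase, was detected in 1 oocyte of each group (S/N 3.44 and 7.92), and each of the others in 1 oocyte only. These were the aldolases Aldoa, in a GV oocyte at 3.35, and Aldoc, in an Ago2-deficient oocyte at 3.24, and the ATP-forming kinase Pgk1, in an Ago2-deficient oocyte at 3.53. Their log2 values ran from 5.90 to 9.03. Among the listed genes, the enzymes of the later steps of glycolysis, other than Gapdh, Ldha and Ldhb, thus gave no value for comparing the groups. The pyruvate kinase gene Pklr, which is outside the list, was tested and is described below.

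**Figure D2:**
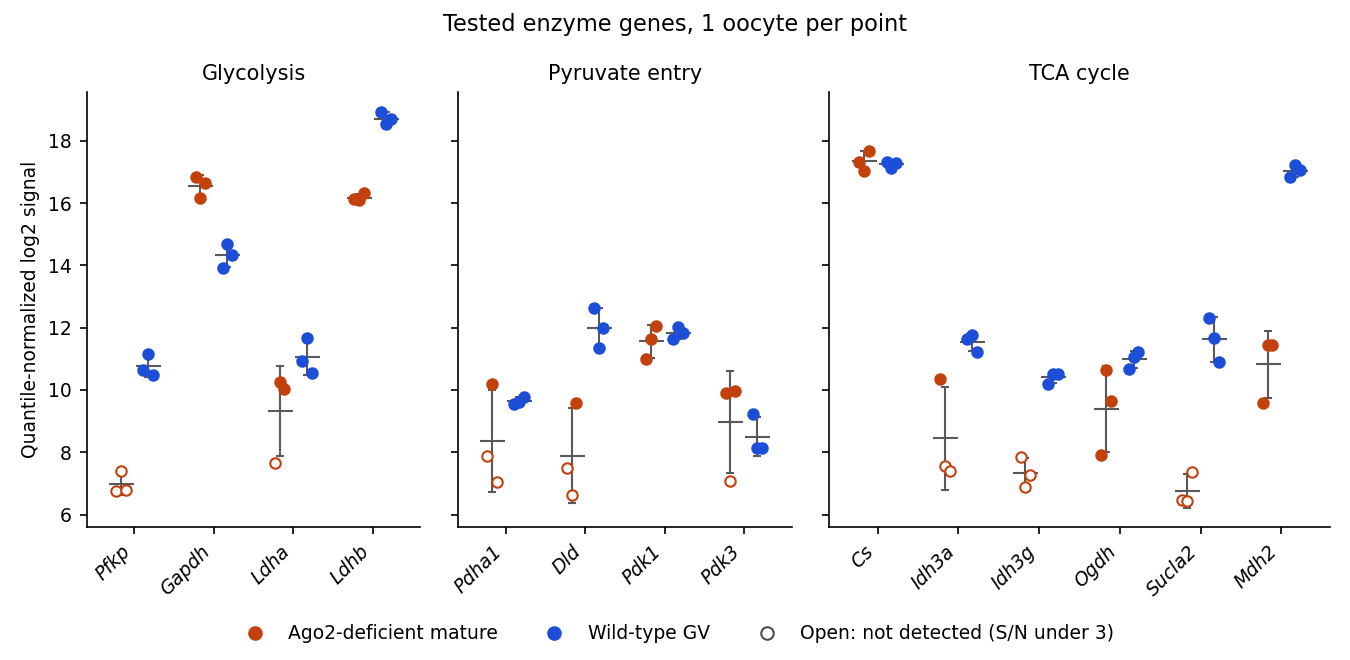
Quantile-normalized log2 signal (vertical axis) of the 14 tested enzymes, by genotype and stage; each point is an oocyte, open where the probe was not detected, and the lines give the mean with its SD over 3 oocytes. Mdh2 falls from about 17.04 to 10.82 while Cs lies at 17.25 and 17.35. Gapdh is the enzyme whose mutant points lie above its GV points, but its difference was -0.63 and not called with arrays scaled to a common median.

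At pyruvate entry 1 of 4 tested genes was lower and none was higher, beside 44.8% lower and 17.4% higher of all tested genes. Of the 4, 3 were tested only through the GV oocytes. Dld, the dihydrolipoamide dehydrogenase that the pyruvate and 2-oxoglutarate dehydrogenase complexes share, had values of 7.49, 6.62 and 9.58 in the Ago2-deficient oocytes, against 12.64, 11.33 and 11.99 at the GV stage. Only the third mutant oocyte passed the detection limit (S/N 6.45), and the highest mutant value lay below the lowest GV value. The log2 difference of Dld was -4.09 (adjusted p = 0.00437 from limma, standard error 0.80), with -3.45 once Ago2-deficient replicate 2 was left out, and Dld was at least 30.5-fold lower once replicate 3 was. A part of this difference rests on signals under the detection limit.

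Pdha1, the X-linked catalytic subunit of pyruvate dehydrogenase, read 7.87, 10.20 and 7.05 against 9.56, 9.63 and 9.78. It was detected in every GV oocyte and in 1 mutant oocyte, which lay above the GV oocytes. The difference was -1.28 (standard error 0.79, adjusted p = 0.197 from limma), but Pdha1 was called at least 4.59-fold lower without that oocyte, Ago2-deficient replicate 2. The other subunits of the complex, Pdhb and Pdhx, were not tested: Pdhb was detected in 1 GV oocyte (S/N 3.07) and Pdhx in none.

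The pyruvate dehydrogenase kinases switch the complex off by phosphorylation, and for some of them the mutant oocytes differed widely among themselves. Pdk1 read 11.01, 11.63 and 12.05 against 11.65, 12.02 and 11.83, was detected on all 6 arrays and was not called (-0.27, standard error 0.38). Pdk3 read 9.90, 7.09 and 9.96 against 9.21, 8.13 and 8.14 and was not called (0.49, standard error 0.84). Without Ago2-deficient replicate 2, which was undetected, Pdk3 was called higher by 1.43 (adjusted p = 0.0394 from limma). Pdk2 read 10.77, 11.91 and 6.46 against 6.24 to 8.05. It was detected in 2 mutant oocytes (S/N 4.31 and 16.8) and in 1 GV oocyte (3.14), so it was not tested. Without Ago2-deficient replicate 3 it entered the test and was called higher by 3.91 (adjusted p = 0.00512 from limma). Pdk4 and Pcx, the pyruvate carboxylase that makes oxaloacetate, were detected on no array.

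In the TCA cycle 4 of 6 tested genes were lower and none was higher, beside 44.8% lower of all tested genes. Of the 6, 3 were tested only through their detection in the GV oocytes. Mdh2, the mitochondrial malate dehydrogenase that closes the cycle, read 9.58, 11.44 and 11.45 in the Ago2-deficient oocytes, against 16.83, 17.21 and 17.06 at the GV stage. It was detected on all 6 arrays, and its groups lay far apart. The log2 difference was -6.21 (standard error 0.57, adjusted p = 0.000263 from limma), a 74.1-fold lower signal, and -5.59 without Ago2-deficient replicate 1. Its unscaled signal was 551 to 1981 in the mutant and 191784 to 237454 in the GV oocytes.

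Citrate synthase (Cs), which starts the cycle, stood against this. Its values of 17.33, 17.03 and 17.67 in the Ago2-deficient oocytes lay beside 17.32, 17.11 and 17.30 at the GV stage, so that the groups overlapped. The difference was 0.10 (standard error 0.32, adjusted p = 0.806 from limma), but -1.03 and not called with no scaling and -2.14 and called with arrays scaled to a common median.

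Sucla2, the ADP-forming subunit of succinyl-CoA synthetase, read 6.47, 6.43 and 7.37 against 12.32, 11.68 and 10.89. It was detected in every GV oocyte and in no mutant oocyte, at least 29.3-fold lower on the quantile values (adjusted p = 0.000361 from limma), with a log2 difference of -2.76 under cyclic loess and -4.26 with centring, both called. The mutant value of replicate 1 carried a flag and is left empty in the authors' series table, without which the difference was -4.73.

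NAD-dependent isocitrate dehydrogenase is built from 3 kinds of subunit, and both of those with a probe were lower. Idh3g read 7.86, 6.87 and 7.27 against 10.19, 10.53 and 10.52, and was at least 8.45-fold lower (adjusted p = 0.000666 from limma). Idh3a, the catalytic subunit, read 10.36, 7.56 and 7.40 against 11.64, 11.78 and 11.22, and was detected in 1 mutant oocyte. The mutant oocytes of both genes lay below the GV oocytes. Idh3a had a log2 difference of -3.10 (adjusted p = 0.0145 from limma, standard error 0.81). It was at least 16.7-fold lower without Ago2-deficient replicate 1, the mutant oocyte in which it was detected, and lost its call without GV replicate 1 (adjusted p = 0.0533 from limma) or replicate 2 (0.0537). Under cyclic loess neither was called, at -1.37 for Idh3a and -1.14 for Idh3g (adjusted p = 0.101 and 0.0503 from limma). Ogdh, the first enzyme of the 2-oxoglutarate dehydrogenase complex, read 7.91, 10.64 and 9.64 against 10.69, 11.06 and 11.22. It was detected on all 6 arrays and lay lower in every mutant oocyte, but was not called (-1.60, standard error 0.70, adjusted p = 0.0839 from limma). Ogdh was called lower without Ago2-deficient replicate 2 (-2.22, adjusted p = 0.0216 from limma), and under cyclic loess its difference was 0.082.

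The other 6 TCA cycle genes were not tested. Fh1, the fumarase, was detected in 2 GV oocytes and in no mutant oocyte, and read 6.83, 7.07 and 6.93 against 8.49, 7.54 and 8.92. Without GV replicate 2 it entered the test and was at least 3.38-fold lower (adjusted p = 0.0179 from limma). Mdh1, the cytosolic malate dehydrogenase, read 10.38, 8.72 and 10.96 against 8.43, 8.49 and 6.95. Its signal was thus higher in every mutant oocyte, while its S/N passed the limit in 2 GV oocytes (5.71 and 5.24) and in no mutant oocyte (-0.67, -0.29 and 2.81). Dlst, the core of the 2-oxoglutarate dehydrogenase complex, and Suclg1, the partner of Sucla2, were each detected in 1 GV oocyte (S/N 4.78 and 3.03). Idh1 and Idh2, the cytosolic and mitochondrial NADP-dependent isocitrate dehydrogenases, were detected on no array.

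The scaling between arrays set the size of these differences and the direction of some. Under all 5 scalings compared, Pfkp, Ldhb, Dld, Sucla2 and Mdh2 were called lower, but Pfkp, Dld and Sucla2 were tested only through the GV oocytes. The share of all tested genes called lower under all 5 was not counted. Gapdh was called higher under 3 of the scalings, and Cs was called lower under 1. Ldha, Pdk1 and Ogdh, not called on the quantile values, were called lower under 3 of the 5, and Pdha1 under 2. Median scaling shifted the median of all tested genes by -1.69 on the log2 scale, no scaling by -0.59, cyclic loess by 1.03 and centring each array on its always-detected probes by 0.52. Of all tested genes 1378 were called higher and 3543 lower with the authors' quantile values. A common median gave 311 higher and 6223 lower, unscaled signals gave 609 and 4778, and cyclic loess gave 1952 and 2515. In the set of 2497 genes detected on all 6 arrays, fitted alone, 45.2% were called higher and 21.7% lower. Of the 6 enzymes in that set, Gapdh was called higher, Ldhb, Mdh2 and Ogdh lower, and Pdk1 and Cs were not called.

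**Figure D3:**
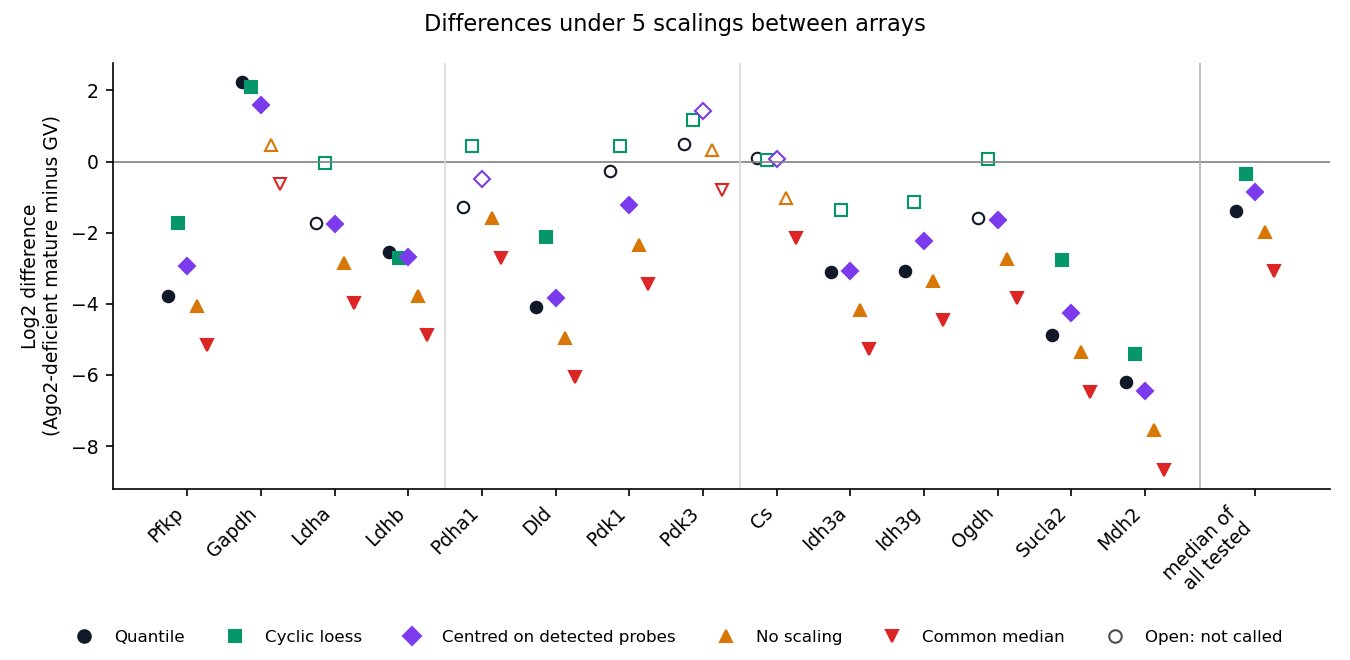
Log2 difference, mutant minus GV oocytes (vertical axis), of the 14 tested enzymes under 5 scalings between arrays, with the median of all tested genes at the right; filled symbols are called. Mdh2 lies between -8.66 and -5.41, Gapdh runs from 2.23 down to -0.63 and Cs from 0.10 down to -2.14.

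A difference between 2 probes on the same array does not change when a whole array is scaled up or down. The 5 other enzymes detected on all arrays were therefore also followed relative to Cs, on unscaled log2 signal, with Cs picked after its values were seen. Relative to Cs, Mdh2 was lower in the Ago2-deficient oocytes by 6.52 on the log2 scale, a 92.0-fold change, with a within-group SD of 0.34 and 0.24 (n = 3). Ldhb fell by 2.75, Ogdh fell by 1.71 and Pdk1 fell by 1.30 in the same terms, and Gapdh rose by 1.51. In each of the 5 the groups did not overlap, which with 3 arrays against 3 gives an exact permutation p = 0.1 (two-sided), the smallest this design allows. How many of all genes also separated relative to Cs was not counted. On the quantile values 70.4% of all tested genes did not overlap, and Pdk1 did overlap. The 5 enzymes changed unequally against Cs, and the ratio does not show which of them changed.

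The promoters of the 3 called enzymes that were detected on all 6 arrays are shown because the values of these genes do not rest on undetected signals. Each is the 250 bases before the start of the gene in RefSeq, GRCm38.p6, written 5′ to 3′ on the strand of the gene, with the letters of 5 motifs in capitals (the GC box GGGCGG, the CCAAT box, the TATA box as TATAAA, and the cores ACGTG and also GCGTG, all searched on both strands). Gapdh, higher in the mutant oocytes as reported but not called with a common median, is at chr6:125165774-125166023 on the minus strand. Ldhb is at chr6:142507958-142508207 on the minus strand, and Mdh2 at chr5:135778399-135778648 on the plus strand.
Gapdh: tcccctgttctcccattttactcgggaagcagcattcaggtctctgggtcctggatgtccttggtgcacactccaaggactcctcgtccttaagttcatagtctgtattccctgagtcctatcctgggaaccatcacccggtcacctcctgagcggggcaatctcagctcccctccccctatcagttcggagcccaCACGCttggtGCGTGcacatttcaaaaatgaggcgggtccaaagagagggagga
Ldhb: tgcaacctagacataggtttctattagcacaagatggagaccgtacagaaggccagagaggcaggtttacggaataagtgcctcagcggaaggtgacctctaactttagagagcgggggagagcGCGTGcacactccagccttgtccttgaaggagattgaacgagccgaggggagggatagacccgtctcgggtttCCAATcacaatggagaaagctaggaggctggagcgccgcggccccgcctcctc
Mdh2: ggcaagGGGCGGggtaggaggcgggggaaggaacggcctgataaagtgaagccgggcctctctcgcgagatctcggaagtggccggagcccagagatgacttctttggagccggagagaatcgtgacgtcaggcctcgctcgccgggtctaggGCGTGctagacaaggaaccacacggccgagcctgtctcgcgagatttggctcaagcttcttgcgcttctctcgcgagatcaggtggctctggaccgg

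All 3 promoters hold GCGTG, whose letters, like ACGTG, form the core that hypoxia-inducible factors recognize. The Gapdh promoter holds it 2 times, at 54 and 44 bases before the start, the Ldhb promoter at 126 bases beside a CCAAT at 53, and the Mdh2 promoter at 97 bases beside a GGGCGG at 244. GCGTG was found in 28.2% of 32851 promoter windows of the same length, and in 26 of the 50 windows of these enzymes, several of which belong to the same gene and share bases. GGGCGG was found in 32.7% of all windows and 24 of the 50, CCAAT in 33.8% and 21, ACGTG in 16.6% and 20, and TATAAA in 12.4% and 1. A match is a run of letters and not a measured binding site.

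Other genes of these pathways came from lists chosen with the same results known, and their counts stand beside the 17.4% higher and 44.8% lower of all tested genes. Of 21 further glycolytic and gluconeogenic genes on the array 7 were tested, of which 1 was higher and 2 were lower, with 3 of the 7 tested only through the GV oocytes. Pklr, the liver and red cell pyruvate kinase, had values of 12.48, 12.69 and 11.84 in the Ago2-deficient oocytes, against 9.10, 8.97 and 9.08 at the GV stage, and the groups did not overlap. It was higher by 3.29 on the log2 scale (adjusted p = 0.000425 from limma, standard error 0.35), and by 0.84 and not called with a common median. Galm, the aldose mutarotase, was lower (log2 difference -3.66), detected in 2 mutant oocytes, and lost its call without any 1 of the GV oocytes (adjusted p = 0.0649 to 0.0883 from limma). The call of Galm was kept under 12 of 16 other alternative settings. Without Ago2-deficient replicate 2 its difference was -2.36 and without replicate 3 it was -4.67. Fbp2, the muscle fructose bisphosphatase of gluconeogenesis, was at least 5.19-fold lower, and was not called (-1.04) with each array centred on the always-detected probes. Adpgk, an ADP-dependent glucokinase, and the mitochondrial phosphatase Pgam5 were not called, at 0.04 (standard error 0.35) and -0.16 (standard error 0.30), and both were called lower with a common median, at -3.24 and -3.49.

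Of 12 further pyruvate and TCA cycle genes on the array 6 were tested, all of them only through the GV oocytes, and 4 were lower. Sdhb, the iron-sulfur subunit of succinate dehydrogenase, which oxidizes succinate in the cycle, read 5.71, 7.80 and 6.30 against 14.89, 14.95 and 15.35. Its groups lay farthest apart of the genes described here, at -8.46 (standard error 0.57, adjusted p = 0.000142 from limma), with detection in 1 mutant oocyte. It was at least 460-fold lower without that oocyte, Ago2-deficient replicate 2, and differed by -8.01 without replicate 1, whose value the authors' series table leaves empty. Its membrane anchor Sdhd read 6.88, 6.61 and 9.85 against 14.53, 14.18 and 14.16, a difference of -6.51 (standard error 0.86), and was at least 186.8-fold lower without Ago2-deficient replicate 3, the mutant oocyte in which it was detected. These bounds hold for the quantile values and are not strict limits. Under 16 alternative settings with all arrays kept, the difference ran from -10.02 to -6.12 for Sdhb and from -8.42 to -4.53 for Sdhd. The citrate carrier Slc25a1 was at least 6.79-fold lower. Sdhc, the other anchor, was not called (-0.06, standard error 1.53), since 2 mutant oocytes read 11.82 and 12.83 and the third read 6.62, and it was called higher by 1.84 without that oocyte. Sdha, the catalytic subunit, was not called (-1.98, adjusted p = 0.0736 from limma), but was called at least 7.70-fold lower without Ago2-deficient replicate 2.

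All 5 tested genes of the pentose phosphate pathway, which makes NADPH and ribose from glucose 6-phosphate, were called, 4 lower and 1 higher, beside 62.2% called of all tested genes. Of the 5, 4 were tested only through the GV oocytes. Tktl1, a transketolase-like gene, had values of 14.46, 12.94 and 14.41 in the Ago2-deficient oocytes, against 9.35, 10.04 and 9.06 at the GV stage. It was higher by 4.46 on the log2 scale (adjusted p = 0.000626 from limma, standard error 0.53) and was called higher under each of the 5 scalings. Its relative Tkt, the transketolase itself, moved the other way, at 8.85, 9.49 and 7.08 against 12.17, 12.73 and 12.15, a difference of -3.88 (standard error 0.65) with detection in 1 mutant oocyte, and -3.18 without Ago2-deficient replicate 3. Rpe, an epimerase, was at least 4.95-fold lower, but was not called under cyclic loess (-0.62) or with centring on detected probes (-1.16). Rpia, an isomerase, was lower (log2 difference -2.82, adjusted p = 0.0348 from limma), a call kept in 1 of the 6 fits that left out an array, with -1.94 without Ago2-deficient replicate 1. It was kept under 11 of 16 other alternative settings, with differences of -4.64 to -0.95.

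**Figure D4:**
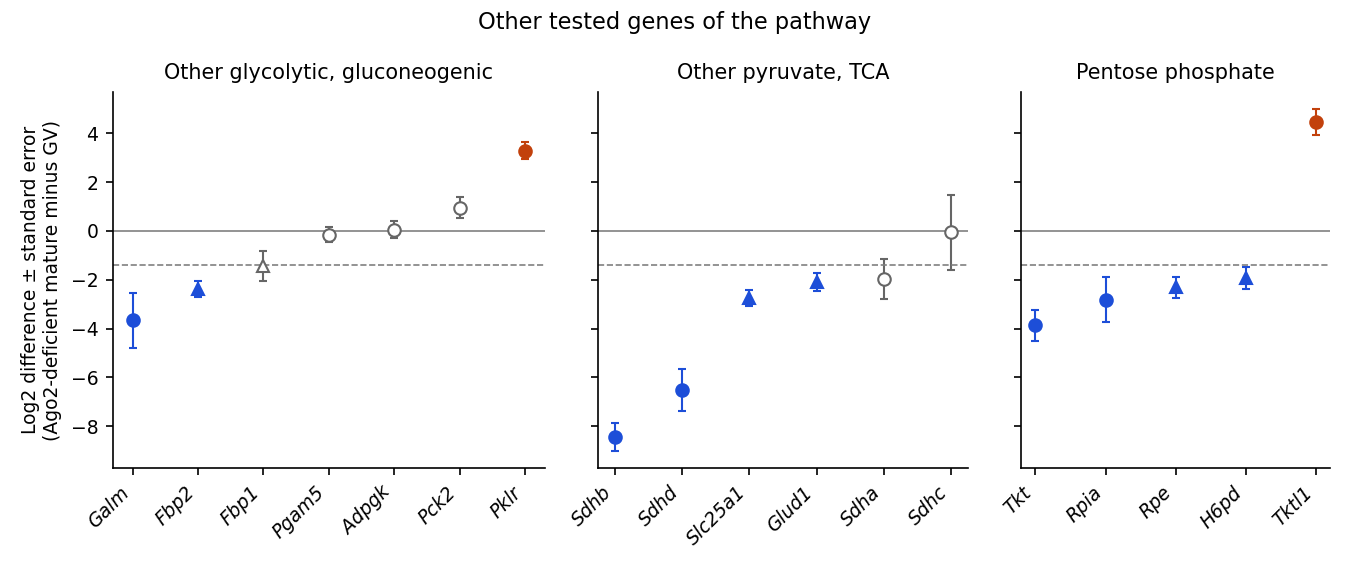
Log2 difference with its standard error, mutant minus GV oocytes (vertical axis), of the other tested pathway genes; filled symbols are called, triangles mark genes undetected in every mutant oocyte, and a dashed line marks -1.39, the median over all tested genes. Sdhb and Sdhd lie lowest at -8.46 and -6.51, and Pklr and Tktl1 highest at 3.29 and 4.46.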

How the data were processed

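Single-oocyte RNA was amplified and hybridized to Applied Biosystems mouse arrays, 1 oocyte per array. The deposited file of each array gives per probe an unscaled signal intensity, a signal-to-noise score, a flag code and a quantile-normalized log2 value made by the authors over the 6 arrays. These deposited log2 values were tested as given. The authors' series table repeats them but leaves 2675 flagged cells empty, which were used here. The software version and the meaning of the flag codes are not given in the sources used here. Probes took gene names from GEO's platform annotation, in which 14411 of 33012 probes have 1 symbol, 247 several and 18354 none.

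Differences were fitted with limma (version 3.58.1, R 4.3.3) on the 3 Ago2-deficient and 3 GV arrays without covariates, over 8018 probes of 7915 genes with S/N of at least 3 on every array of a group. A gene with several tested probes was given by the one with the highest mean. Calls needed an adjusted p under 0.05 and over 2-fold. The fit was tested on simulated data. Named genes were all members and, of each other list, up to 3 called higher and 3 called lower with the largest changes and 2 not called with the highest signal; other markers named were chosen after their values were seen. The members and lists were chosen with earlier results of these data known. The number of arrays limits the precision. Alternatives covered scaling, background, filters, thresholds, variance models, the replicate block and leaving out each array.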

Additional observations from a re-analysis of the deposited data

How the results depend on the processing

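The 5 enzymes Pfkp, Ldhb, Dld, Sucla2 and Mdh2 were called lower under every scaling and with any 1 array left out, while other calls moved. Of all tested genes, 2515 to 6223 were called lower under a given scaling, and 3019 to 3812 with an array left out. How many of them kept the call throughout was not counted, so the 5 enzymes have no background share. Of these, Pfkp, Dld and Sucla2 were tested only through the GV oocytes, a selection that favours lower values in the mutant oocytes. They could not enter the fit of probes detected on all 6 arrays. Over all genes a common median gave 311 higher and 6223 lower, no scaling 609 higher, and the probes detected on all 6 arrays 543 lower. Glycolysis genes called higher numbered 0 when arrays shared a median and 0 when not scaled, and 2 with no filter on dim probes, where the undetected Pfkm entered; 1 was lower among probes detected on all 6 arrays. Pyruvate entry genes called lower numbered 3 when arrays shared a median, 3 when not scaled, 2 with centring and 0 among probes detected on all 6 arrays, and leaving out an array gave 1 to 2 lower and 0 to 1 higher. TCA cycle genes called lower numbered 2 with cyclic loess and 2 among probes detected on all 6 arrays. Of 7915 genes tested in all, 4778 were called lower when not scaled, 3145 with centring and 2515 with cyclic loess. The median log2 difference of the tested enzymes was -4.21 when arrays shared a median, -3.11 when they were not scaled, -0.59 with cyclic loess, -0.17 with no filter and -0.93 among probes detected on all 6 arrays. The medians of all tested genes, in the same order, were -3.08, -1.98, -0.36, 0.13 and 0.83. Directions turned for Gapdh (-0.63), Pdk3 (-0.79), Cs (-2.14) and Adpgk (-3.24) with a common median, for Cs (-1.03) and Adpgk (-2.14) with no scaling, and for Adpgk with centring (-1.03). They turned with cyclic loess for Pdha1 (0.42), Pdk1 (0.43), Ogdh (0.082) and Sdhc (1.37), and for Sdhc with array weights (0.29). With 1 array left out, values ran from -0.51 to 0.0061 for Pdk1, -0.065 to 0.26 for Cs, -0.14 to 0.24 for Adpgk, -1.26 to 1.84 for Sdhc and -0.77 to 0.0042 for the oocyte marker Oosp1. The causes of these changes were not tested.

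Same-numbered arrays showed little shared deviation, with correlations of -0.0487 to 0.0275, which cannot show whether those oocytes were collected or processed together. With the replicate number as a block the enzymes again gave 1 higher and 7 lower, and all genes 1291 and 3384.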
